A study of Mus musculus with 9 samples.

Results

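The 10 genes studied here belong to the bactericidal/permeability-increasing (BPI) fold superfamily, and their RNA was measured in the main olfactory epithelium of 9 mice. They were taken by symbol from the 55291 genes of the expected-count table and are Bpifa1, Bpifb1, Bpifb2, Bpifb3, Bpifb4, Bpifb5, Bpifb6, Bpifb9a, Bpifb9b and Lbp. Bpifb9a and Bpifb9b were chosen as products of the nasal glands, and Lbp was chosen by its measured expected counts, which were higher in Ms4a6c knockout than in wild-type mice in these same data, so its level in that knockout is given as a description without a test. Of the 10 genes, 9 reached the minimum of 10 counts summed over the mice and were tested, while Bpifb2 held 6 counts in all and no more than 2 in any mouse.

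RNA came from 3 wild-type mice (C57BL/6), 3 Ms4a cluster knockout mice (C57BL/6; Ms4a cluster-/-) and 3 Ms4a6c knockout mice (C57BL/6; Ms4a6c-/-), all 8 to 12 weeks old. The Ms4a genes encode membrane proteins, many of which the authors place in necklace olfactory sensory neurons. They report MS4A1, known from B cells, in olfactory sensory neurons outside the necklace. The cluster deletion was made with CRISPR/Cas9 and the Ms4a6c allele by homologous recombination, and both deletions are present in all cells of the animal. The same 3 wild-type mice, described by the authors as littermates, served as controls for both knockouts. No treatment, sex, litter or batch was given for single mice in the sources used here.

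Proteins with a BPI fold hold lipids in an elongated, mostly hydrophobic pocket. In the airways they are secreted onto the epithelial surface by glands and surface cells, where they take part in defense against bacteria, and several were first cloned from olfactory mucosa as candidate odorant carriers. LBP, the product of Lbp, is the best known plasma member. It extracts lipopolysaccharide (LPS) from bacterial membranes and passes it to CD14, from which it reaches the receptor pair TLR4 and MD-2.

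Library totals ran from 13954591 to 21987174 expected counts. The 21 Ms4a symbols of the table held 0 counts in all 3 Ms4a cluster knockout mice and 819.82 counts over the 3 wild-type mice. Ms4a6c held 0, 2.35 and 2 counts in the Ms4a6c knockout mice against 53.95 to 90.34 in wild-type mice. Markers of the labelled tissue were present in every mouse, with 11 of 11 mature olfactory sensory neuron genes summing to between 11650 and 14680 CPM, the share of a TMM-scaled library. Wild-type mouse 1 and Ms4a cluster knockout mouse 2 stood apart, with TMM scaling factors of 0.702 and 0.704 against 1.07 to 1.13 in the other 7, and results that rest on them are given with and without them.

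Of the genes, 9 lie in a row on chromosome 2 (GRCm38), within 445.6 kb between positions 153875045 and 154320646, and all 9 are transcribed from the plus strand. Bpifa6 and Bpifa2, BPI-fold genes that are not among the 10, start between Bpifb4 and Bpifa1. The order of the 9 is Bpifb2, Bpifb6, Bpifb3, Bpifb4, Bpifa1, Bpifb1, Bpifb5, Bpifb9a and Bpifb9b. Lbp lies 3.99 Mb beyond the last of them, at 158306493 to 158332852 on the same strand, 22 kb from Bpi, the gene that names the fold. None of the 10 is overlapped by another annotated gene. The 10 together took between 1.76% and 15.1% of all counts of a mouse.

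Levels between genes were compared as CPM per kb of transcript. Bpifa1, a secreted airway protein that binds bacterial lipids and limits sodium uptake by the epithelium, was highest by the median over the 9 mice, at 7613 CPM per kb (range 6509 to 9753). It ranked between 1 and 18 of 23203 genes, and was among the top 3 in the 7 mice other than wild-type mouse 1 and Ms4a cluster knockout mouse 2. Bpifb9b followed with a median of 1680 CPM per kb and a range of 113.6 to 71850, which covers the ranges of the next members, as does that of Bpifb9a (median 603.8, range 39.0 to 25930). Bpifb3, with a median of 1499 CPM per kb (range 1268 to 1774), and Bpifb4, with 706.1 (range 452.4 to 1222), did not overlap each other. Bpifb4 overlapped Bpifb6, which had a median of 458.4 CPM per kb (range 274.5 to 726).

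A far lower level was found for Lbp and Bpifb1. Lbp, which varied little within groups, had a median of 13.6 CPM per kb (range 10.9 to 42.2). Bpifb1 had a median of 11.8 (range 8.04 to 14.9), so their ranges overlapped. Bpifb1, an airway secretory product related to Bpifa1, ranked between 4049 and 6807. Bpifb5 had a median of 12.1 CPM per kb, close to Bpifb1, but reached 695.4 in 1 mouse. Bpifb2 was at or under 3 counts in all 9 mice, the limit that a count of 0 allows, which covers counting error only and lies between 0.123 and 0.299 CPM.

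**Figure D1:**
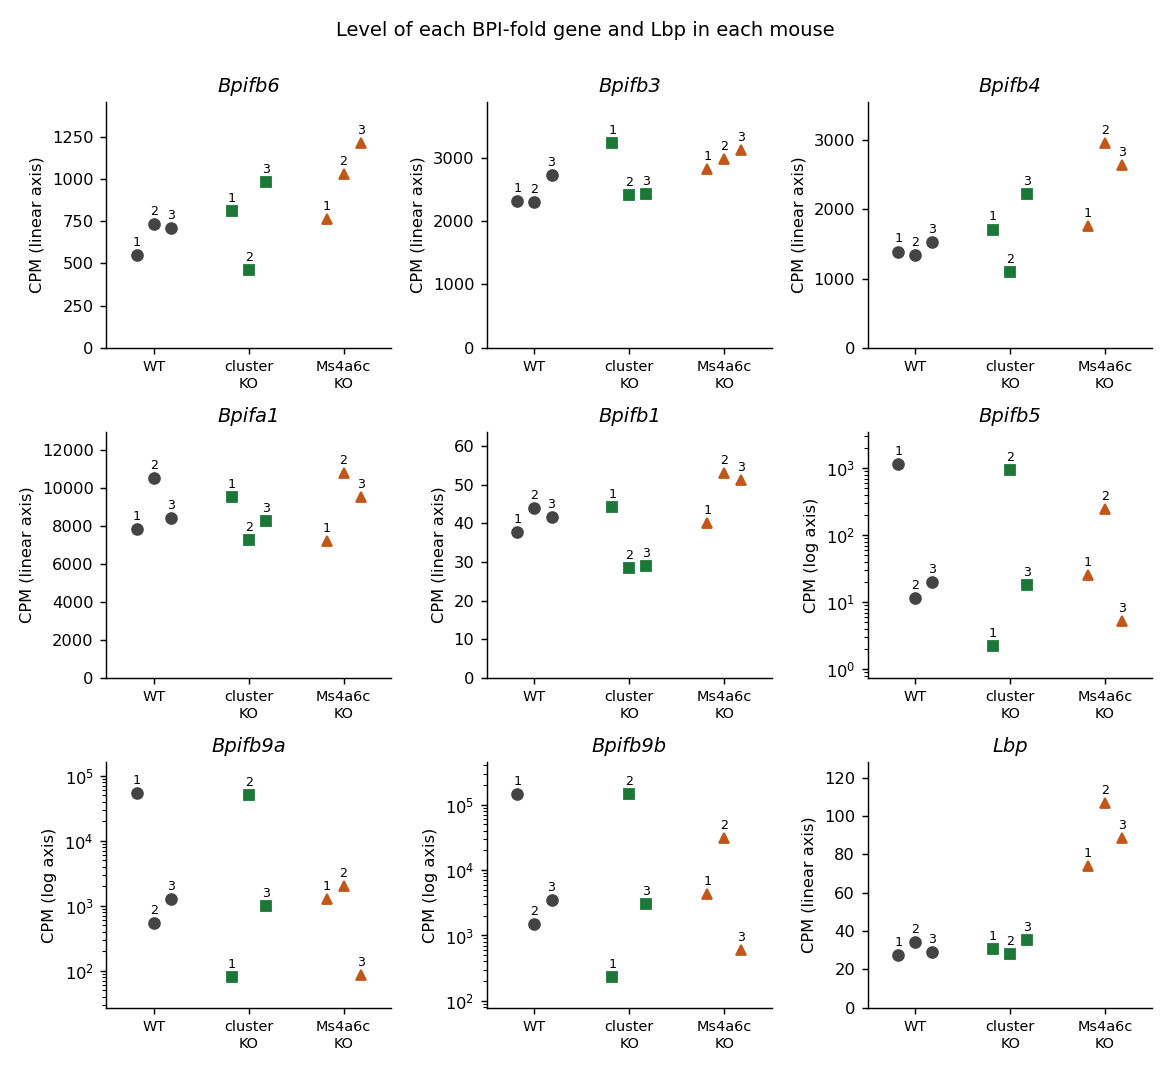
Level of the 9 tested genes in each of the 9 mice, as TMM-scaled CPM. Each point is 1 mouse, numbered as in the labels, with groups along the horizontal axis and the vertical axis is linear from 0 except for Bpifb5, Bpifb9a and Bpifb9b, where it is logarithmic. Lbp is higher in the 3 Ms4a6c knockout mice than in the other 6, and wild-type mouse 1 and Ms4a cluster knockout mouse 2 lie far above their groups for Bpifb5, Bpifb9a and Bpifb9b.

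The members fell into a pair of patterns across mice, which were read from the values and not tested. Bpifb5, Bpifb9a and Bpifb9b varied by 505-fold, 664-fold and 632-fold between the highest and the lowest mouse, and by 109-fold, 24.9-fold and 130-fold among the 7 mice other than wild-type mouse 1 and Ms4a cluster knockout mouse 2. The standard deviation of log2(CPM + 0.5) within groups was 3.59, 3.67 and 3.76 for these 3 genes, against a median of 0.18 over all 23225 genes, and only 20 of those genes were at least as spread as Bpifb5. The other 5 tested BPI-fold genes varied by 1.4-fold to 2.7-fold over the 9 mice, with within-group standard deviations of 0.165 to 0.402.

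Bpifb9a and Bpifb9b are neighbouring copies related to rat vomeromodulin, an abundant secretion of nasal glands. Bpifb9b was at 148500, 1506 and 3473 CPM in wild-type mice 1, 2 and 3. In the Ms4a cluster knockout it was at 234.9, 144700 and 2980 CPM, and in the Ms4a6c knockout at 4379, 30620 and 590.4 CPM. Each group thus held 1 mouse well above its other 2, the groups overlapped, and by CPM per kb Bpifb9b was the highest gene of all in Ms4a6c knockout mouse 2.

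Bpifb9a was at 53550, 542.4 and 1247 CPM in wild-type mice, and at 80.6, 49860 and 991.7 CPM in Ms4a cluster knockout mice. Its levels in the Ms4a6c knockout were 1266, 2010 and 84.6 CPM. The same mice were high and low as for Bpifb9b, except that Ms4a6c knockout mouse 2 was not far above mouse 1. The 2 genes together took 14.2%, 0.225% and 0.526% of the counts of the wild-type mice, 0.0355%, 13.7% and 0.436% in the Ms4a cluster knockout, and 0.626%, 3.49% and 0.0759% in the Ms4a6c knockout.

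Bpifb5, the next BPI-fold gene before them on the chromosome, was at 1138, 11.5 and 19.7 CPM in wild-type mice. The cluster knockout mice had 2.25, 923.6 and 18.3 CPM, and the Ms4a6c knockout mice 25.3, 245.5 and 5.22 CPM. Bpifb5 followed Bpifb9b from mouse to mouse at a far lower level. For every 1000 counts of Bpifb9b there were 5.68 to 9.60 counts of Bpifb5 over the 9 mice, while Bpifb9b itself varied as above. Between wild-type mice 1 and 2 the fold was 98.7 for Bpifb5, 98.7 for Bpifb9a and 98.6 for Bpifb9b. The folds were less alike in the knockouts. From the lowest to the highest mouse they were 410, 619 and 616 in the Ms4a cluster knockout, for the genes in the same order. In the Ms4a6c knockout they were 47.0, 23.8 and 51.9.

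**Figure D2:**
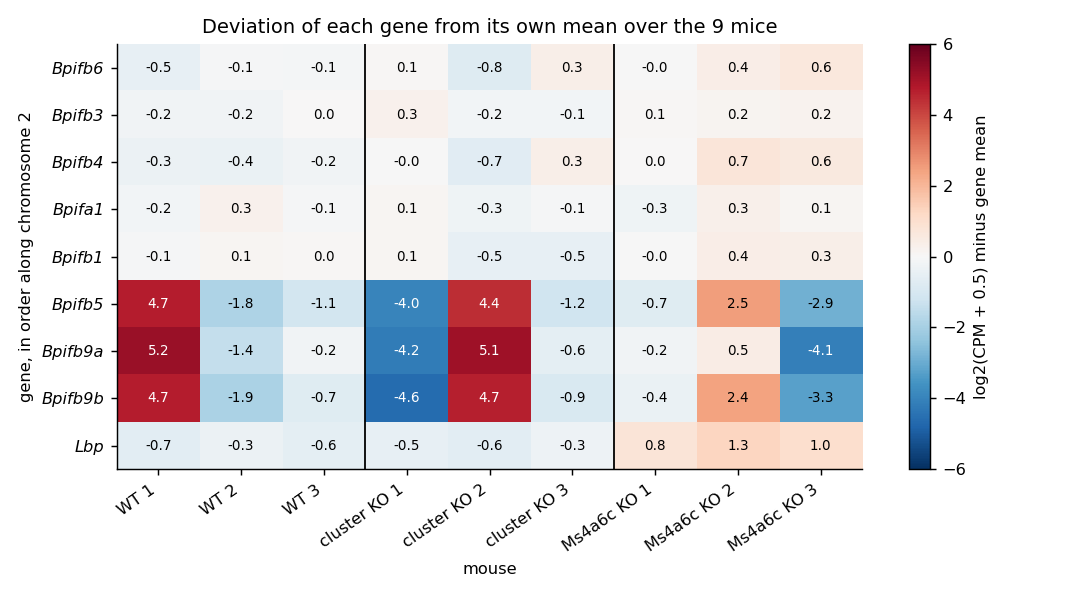
Deviation of each tested gene from its own mean over the 9 mice, as log2(CPM + 0.5), with genes from top to bottom in their order along chromosome 2 and mice from left to right by group. Red cells are above and blue cells below the gene's mean. Bpifb5, Bpifb9a and Bpifb9b share their high and low mice, the 5 genes before them show little deviation, and Lbp is above its mean in the 3 Ms4a6c knockout mice alone.

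Likeness of profiles was measured as the root mean square difference between centred log2(CPM + 0.5) values over the 9 mice, and is a description, since all genes share the libraries. Bpifb5 and Bpifb9b differed by 0.32, Bpifb9a and Bpifb9b by 0.80, and Bpifb5 and Bpifb9a by 0.94. Between these 3 genes and the other 6 the difference was 3.05 to 3.49. Among the members, the break in the row therefore fell between Bpifb1 and Bpifb5. The gaps from Bpifb5 to Bpifb9a and on to Bpifb9b measured 17 kb and 36 kb. The break does not hold for all BPI-fold genes there. Bpifa6, not a member, starts between Bpifb4 and Bpifa1 and ran from 0.10 to 10.5 CPM. Over the 6 wild-type and Ms4a cluster knockout mice Bpifb9a and Bpifb9b differed by only 0.04, and Bpifb5 differed from them by 0.34 and 0.33.

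The windows before the start sites of these 3 genes are shown because the genes varied together. They come from RefSeq on GRCm38.p6, run 5′ to 3′ on the plus strand over the 150 bases before the RefSeq start, and lie at chr2:154223592-154223741, chr2:154257729-154257878 and chr2:154307094-154307243. Capitals mark the letters TATAAA, the core of a TATA box.
Bpifb5: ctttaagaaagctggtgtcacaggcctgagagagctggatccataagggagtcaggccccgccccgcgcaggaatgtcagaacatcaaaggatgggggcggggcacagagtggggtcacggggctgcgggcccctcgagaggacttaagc
Bpifb9a: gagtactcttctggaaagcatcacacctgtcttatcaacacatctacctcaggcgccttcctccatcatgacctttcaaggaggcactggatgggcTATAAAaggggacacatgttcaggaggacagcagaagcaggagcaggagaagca
Bpifb9b: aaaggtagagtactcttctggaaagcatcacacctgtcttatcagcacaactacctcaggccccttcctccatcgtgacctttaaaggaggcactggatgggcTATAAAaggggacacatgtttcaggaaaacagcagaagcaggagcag
TATAAA stood 54 bases before the RefSeq start of Bpifb9a and 47 bases before that of Bpifb9b. The GENCODE starts lie 25 and 17 bases before the RefSeq starts, so the letters began 29 and 30 bases before them. The window of Bpifb5 held neither TATAAA nor its reverse complement. Of 32851 RefSeq promoters, 4.84% held TATAAA within the same 150 bases on the strand of the gene and 7.57% on either strand. Among the 9 members with an entry, Bpifa1 was the other one to hold it, 29 bases before its start. The full windows of 300 bases of Bpifb9a and Bpifb9b were identical at 279 of 292 aligned bases (95.5%), against 61.3% between Bpifb9a and Bpifb5 and 65.5% between Bpifb9b and Bpifb5.

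The transcripts of Bpifb9a and Bpifb9b were nearly the same, with 2051 of 2065 aligned bases identical (99.3%). Of the 1916 stretches of 150 bases in the Bpifb9a transcript, 833 (43.5%) also occurred without a mismatch in that of Bpifb9b, and their counts were not whole numbers in any mouse. The division of reads between the 2 genes is thus the estimate of RSEM, which shares out reads that match both, and each gene's own level is uncertain while their sum is not affected by that division. No other pair of members shared a stretch of 150 bases.

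Bpifb9a held 26.5%, 26.5% and 26.4% of the summed Bpifb9a and Bpifb9b counts in the wild-type mice, and 25.6%, 25.6% and 25% in the Ms4a cluster knockout. In the Ms4a6c knockout it held 22.4%, 6.16% and 12.5%. The share lay between 25% and 26.5% in the first 6 mice and was lower and more spread in the last 3, at 13.7% ± 8.18 (SD, n = 3) against 26.5% ± 0.0577 in wild-type mice and 25.4% ± 0.346 in the Ms4a cluster knockout. The sum of both genes lay between 6298 and 2842528 counts in the first 6 mice and between 10595 and 525953 in the Ms4a6c knockout, and whether the number of counts has a part in the share was not tested. Relative to Bpifb5 the groups overlapped: for every 1000 counts of Bpifb9a there were 15.8 to 28 counts of Bpifb5 in the first 6 mice and 20.0, 122 and 61.8 in the Ms4a6c knockout. The shares are given without a test.

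**Figure D3:**
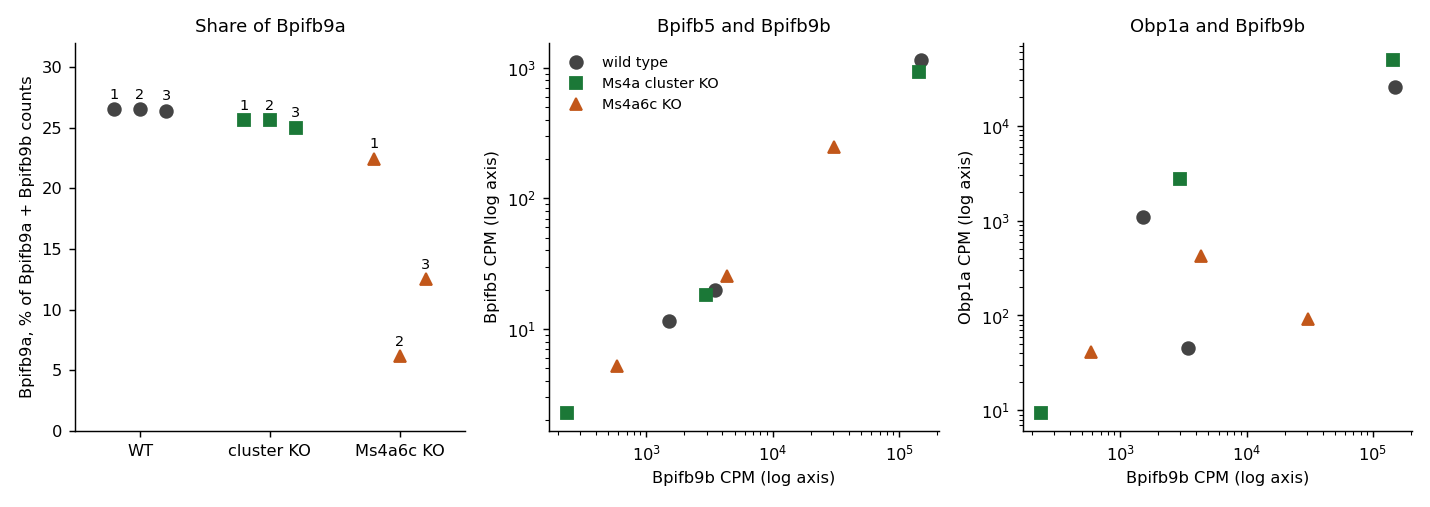
Left, Bpifb9a as a percentage of the summed Bpifb9a and Bpifb9b counts in each mouse, on an axis from 0; middle and right, Bpifb5 and Obp1a against Bpifb9b in CPM on logarithmic axes, with 1 point a mouse. The share lies between 25% and 26.5% in the wild-type and Ms4a cluster knockout mice and between 6.16% and 22.4% in the Ms4a6c knockout, while Bpifb5 follows Bpifb9b closely, and Obp1a does so less closely.

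Other gland products moved with these genes only in part. Of 16 nasal gland markers 14 were in the table, and their sum was 137000, 3765 and 464.6 CPM in wild-type mice, 345.2, 156100 and 11400 CPM in the Ms4a cluster knockout and 1635, 796.7 and 700.6 CPM in the Ms4a6c knockout. With edgeR 0 of the 14 passed in either knockout, with 2 and 5 at an unadjusted p under 0.05, against 4.93% and 10.5% of all genes. The 2 were Lcn3 and Lcn4, both higher. The 5 were Obp2a, Obp2b, Lcn11, Mup4 and Mup5, all lower, and all rest on wild-type mouse 1. Mup4 was at 30170, 422.8 and 26.5 CPM in wild-type mice and 136.6, 58.7 and 23.8 CPM in the Ms4a6c knockout. Without wild-type mouse 1 the 2 groups overlapped for each of the 5. The sum of the 14 was far above the rest in the same 2 mice as Bpifb9b, where the Obp and Mup genes made up most of it. Obp1a, an odorant-binding protein of the nasal glands, was at 25730 and 48920 CPM in those 2 mice and between 9.27 and 2758 CPM in the other 7. Lcn3, Lcn4 and Dmbt1 were instead highest in Ms4a cluster knockout mouse 3, at 283.9, 159.8 and 476.4 CPM, and Lcn4 was at 0.85 CPM in wild-type mouse 1. Aqp5 and Sox9 varied far less, but were also highest in wild-type mouse 1 and Ms4a cluster knockout mouse 2. They were at 228.2 and 207.6 CPM and at 22.2 and 26.3 CPM there. In the other 7 mice they stayed within 155.8 to 200.2 and 14.8 to 16.9 CPM. Pigr was highest in the same 2 mice too, at 141.3 and 178.6 CPM against 47.5 to 82.8 CPM. Ascl3 stayed within 26.0 to 35.9 CPM over the 9 mice and was lowest in wild-type mouse 1. The ratio of Bpifb9b to Obp1a ranged from 1.08 to 332, with 332 in Ms4a6c knockout mouse 2 and 76.4 in wild-type mouse 3. Bpifb9b was thus high in Ms4a6c knockout mouse 2 while Obp1a stood at 92.2 CPM there. In bulk RNA, a larger number of gland cells and more RNA per gland cell cannot be told apart, and the part of gland content in the levels of Bpifb5, Bpifb9a and Bpifb9b was not tested.

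The 3 genes nearest in profile were named by a fixed rule for each member with a mean of at least 50 counts. They were sought among 16537 genes with a mean of at least 1 CPM. For Bpifb9b they were 2310003L06Rik (0.26), Bpifb5 (0.32) and Cabs1 (0.50), and for Bpifb5 they were Cabs1 (0.30), 2310003L06Rik (0.31) and Bpifb9b (0.32). Bpifb9a was nearest to Bpifb9b, Cabs1 (0.91) and Bpifb5. Bpifb6 was nearest to the carboxylesterase gene Ces1a (0.11), and Dhrs9 (0.09) was among the 3 nearest to Bpifb1. Bpifb4 had Bpifb6 (0.17) and Cdcp3 (0.18) among its nearest. Rad1 (0.07) was the nearest to Bpifb3, and Prdm15 (0.09) was among the nearest to Bpifa1. With a pseudocount of 2 in place of 0.5, Cabs1 was no longer among the nearest 3 of Bpifb5, Bpifb9a or Bpifb9b.

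Within the steadier genes, Bpifb4 and Bpifb6 were the most alike pair. Bpifb4, known as RY2G and described in olfactory mucosa, was at 1391, 1337 and 1522 CPM in wild-type mice, 1709, 1095 and 2220 CPM in the Ms4a cluster knockout and 1761, 2957 and 2640 CPM in the Ms4a6c knockout. Bpifb6, whose product stays inside the cell and has been linked to the secretory pathway, was at 551.8, 730.8 and 706.6 CPM, then 807.5, 458.2 and 979.7 CPM, and then 765.1, 1028 and 1212 CPM in the same order. Both were lowest in Ms4a cluster knockout mouse 2, and in both the Ms4a6c knockout mice lay above the wild-type mice without overlap. Bpifb4 had 1.83 to 2.88 times the CPM of Bpifb6 in every mouse.

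Bpifb3, known as RYA3 and also from olfactory mucosa, was at 2310, 2308 and 2730 CPM in wild-type mice and at 3230, 2417 and 2426 CPM in Ms4a cluster knockout mice. It was at 2827, 2986 and 3121 CPM in Ms4a6c knockout mice, just above the wild-type range. Bpifa1 was at 7836, 10560 and 8420 CPM, 9525, 7255 and 8249 CPM, and 7199, 10790 and 9558 CPM in the 3 groups, and Bpifb1 at 37.8, 44.1 and 41.6 CPM, 44.2, 28.5 and 28.8 CPM, and 40.0, 53.0 and 51.4 CPM. For these last 2 genes all groups overlapped.

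The first comparison asked whether loss of the whole Ms4a cluster altered these genes. With edgeR's quasi-likelihood test over 23225 genes, 0 of the 9 tested members passed an adjusted p of 0.05, where 0.0258% of all tested genes did. By an unadjusted p under 0.05 it was 0 of 9 against 4.93% of all genes, DESeq2 also called 0, and in 0 of 9 did the groups fail to overlap, against 9.86% of all genes. DESeq2 gave no p for Bpifb5, Bpifb9a and Bpifb9b.

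The intervals differed greatly in width between the patterns. The log2 fold change was 0.24 ± 0.25 (standard error, n = 3 mice a group) for Bpifb4, 0.18 ± 0.26 for Bpifb6, 0.14 ± 0.14 for Bpifb3, -0.10 ± 0.18 for Bpifa1 and -0.28 ± 0.17 for Bpifb1. For Bpifb5, Bpifb9a and Bpifb9b it was -0.31 ± 2.01, -0.12 ± 1.98 and -0.05 ± 2.05, and without wild-type mouse 1 and Ms4a cluster knockout mouse 2 it was -0.61, -0.74 and -0.63. Fold changes of up to about 4 in either direction lay within 1 standard error of these 3 values, so a change of that size was not detectable here. The adjusted p of the 8 BPI-fold genes, from edgeR, was between 0.971 and 1. Lbp, at a log2 fold change of 0.05 ± 0.14, shares its wild-type mice with the comparison for which it was chosen and is given without a p.

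Lbp was at 27.7, 34.2 and 29.1 CPM in wild-type mice, 30.8, 27.8 and 35.2 CPM in Ms4a cluster knockout mice and 74.0, 106.6 and 88.7 CPM in Ms4a6c knockout mice. The 3 Ms4a6c knockout mice lay above the other 6 without overlap, with means of 89.8 ± 16.3 CPM (SD, n = 3) against 30.3 ± 3.45 in wild-type and 31.3 ± 3.71 in Ms4a cluster knockout mice. The deposited counts behind these values were 1392 to 1806 in the Ms4a6c knockout and 279 to 702 in the other 6 mice. As a description of the choice, the level was 2.95 times that of wild-type mice (log2 fold change 1.56 ± 0.14). In Ms4a cluster knockout mice, which lack Ms4a6c together with the other Ms4a genes, Lbp was 1.03 times the wild-type level, and the log2 fold change of cluster knockout over Ms4a6c knockout mice was -1.51 ± 0.14. These comparisons share mice, and so are set side by side only.

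Ms4a6c knockout and wild-type mice were compared for the other members as a description too, since the rule used that contrast. Bpifb3, Bpifb4 and Bpifb6, 3 of the 8 members other than Lbp, lay above the wild-type mice without overlap, where 9.71% of all genes did, and 0 of the 8 lay below them, where 8.55% of all genes did. Nothing is read from these counts. The log2 fold change was 0.79 ± 0.25 for Bpifb4, 0.60 ± 0.26 for Bpifb6, 0.28 ± 0.14 for Bpifb3, 0.22 ± 0.17 for Bpifb1 and 0.04 ± 0.18 for Bpifa1. Over the 9 members the median was 0.22, against -0.002 over all genes. When the 2 knockouts were compared, Lbp was the 1 of 9 that lay lower without overlap in the Ms4a cluster knockout, where 8.09% of all genes did.

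For Bpifb5, Bpifb9a and Bpifb9b the same contrast depended on single mice. The log2 fold change was -2.08 ± 2.09, -4.04 ± 2.24 and -2.11 ± 2.14 with all mice. Without wild-type mouse 1 it was 2.55, 0.32 and 2.25, and without both that mouse and Ms4a cluster knockout mouse 2, an exclusion chosen after the data were seen, 2.55, 0.32 and 2.25. Without Ms4a6c knockout mouse 2 it was -4.65, -4.78 and -4.37. The direction thus turned with wild-type mouse 1, and the size moved with Ms4a6c knockout mouse 2.

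**Figure D4:**
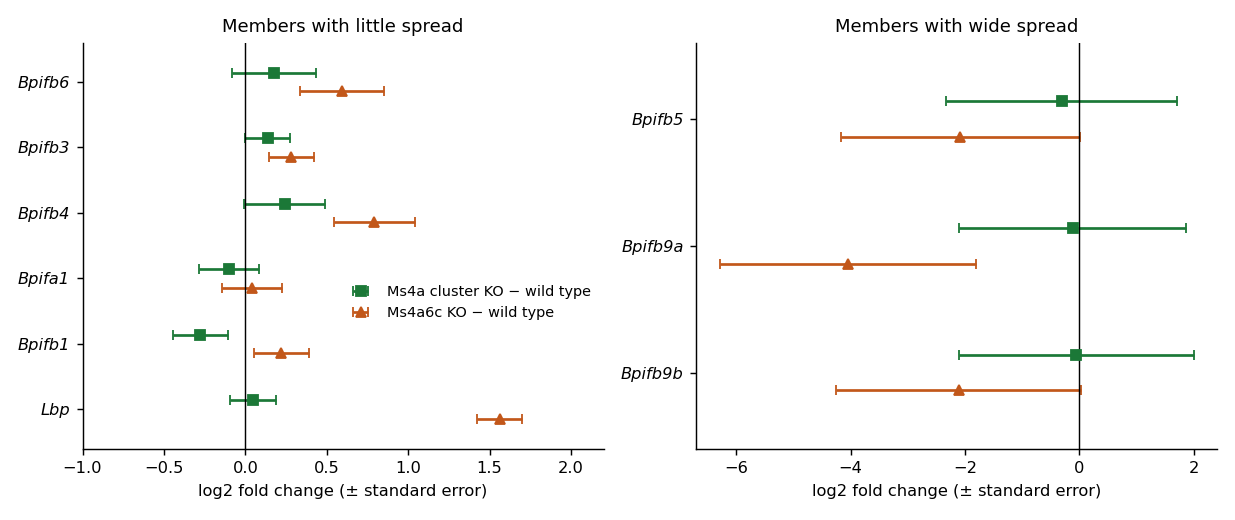
Log2 fold change of each tested gene in Ms4a cluster knockout (squares) and Ms4a6c knockout mice (triangles) relative to the same 3 wild-type mice; bars are ± 1 standard error from edgeR. The left panel holds the 6 genes with little spread within groups and the right panel Bpifb5, Bpifb9a and Bpifb9b on a wider axis. Lbp in the Ms4a6c knockout lies at 1.56, and the bars of the 3 genes on the right are about 2 log2 units long on each side.

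Marker lists of other cells were examined beside Lbp, Bpifb4 and Bpifb6. In the Ms4a6c knockout 0.435% of all tested genes passed, and the share at an unadjusted p under 0.05 was 10.5%. The 8 sustentacular cell markers, all present, summed to 27880 to 29520 CPM there against 22670 to 24080 CPM in wild-type and 22150 to 25090 CPM in Ms4a cluster knockout mice, although 0 of 8 passed the test of edgeR in either knockout (1 and 4 at an unadjusted p under 0.05). The 4 were Cyp2a5, Cyp2g1 and Cyp1a2 with higher values and Ermn with lower ones (108.1 to 121.3 CPM against 128.2 to 164), and Krt18 had a log2 fold change of 0.004, so the sum rests on the abundant Cyp2a5 and Cyp2g1. The respiratory secretory list had a median log2 fold change of -0.09 in the Ms4a6c knockout. In it Agr2, a secretory cell foldase, was the 1 of 8 tested genes that passed and was higher, at 250.2 to 260.2 CPM against 201.0 to 209.9, and the list summed to 3968 to 4496 CPM against 3463 to 4008 in wild-type and 3692 to 4109 in Ms4a cluster knockout mice, so these sums overlapped. Reg3g of the same list had lower values (342.7 to 463.8 CPM against 490.8 to 663) and did not pass. Gng13, the G protein subunit of olfactory neurons, was the 1 of 11 neuronal markers that passed. It was lower, at 178.8 to 203.1 CPM against 347.5 to 371.1. The part of these cells in the levels of Lbp, Bpifb4 and Bpifb6 was not tested.

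Liver, the main source of plasma LBP, left little trace: 6 of 9 liver markers were tested, Tat was at 0 in every mouse, and the list summed to 1.40 to 4.78 CPM over the 9 mice. Ciliated cell markers summed to 493.5 to 665.9 CPM. Macrophage marker sums were 286.6 to 321.2 CPM in the Ms4a6c knockout and 310 to 471.2 CPM in wild-type mice. In the Ms4a cluster knockout they were 307.2 to 466.4 CPM, so these sums overlapped. Lyz2 alone held 335.4 CPM in wild-type mouse 1 and 291.8 CPM in Ms4a cluster knockout mouse 2. None of the liver, ciliated or macrophage markers passed in either knockout with edgeR. At an unadjusted p under 0.05 there were 4 and 2 macrophage genes in the cluster and Ms4a6c knockout and 0 of the others. Over all genes the shares were 4.93% and 10.5%. The 4 were C1qa, C1qb, C1qc and Mrc1 with higher values, and the 2 were Csf1r and C1qc with lower ones. Mrc1 was at 12.17 to 13.85 CPM in the cluster knockout against 9.60 to 10.45 CPM in wild-type mice. Against 34.6 to 48.3 CPM in wild-type mice, Csf1r was at 31.8 to 34.5 CPM in the Ms4a6c knockout.

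The list of 11 neutrophil markers, all tested, had a median log2 fold change of 1.25 there and 0.59 in the Ms4a cluster knockout, and with edgeR 0 of 11 passed in either, with 0 in the Ms4a cluster knockout and 8 in the Ms4a6c knockout at an unadjusted p under 0.05. Of the 8, 7 had higher values and Mmp9 lower ones, at 48.3 to 75.7 CPM against 67.7 to 110.8 in wild-type mice. The sum was 155.8 to 322.5 CPM in the Ms4a6c knockout, 166.3 to 188.1 CPM in wild-type mice and 158.4 to 286.1 CPM in the Ms4a cluster knockout. S100a8, an abundant neutrophil protein, was at 18.1, 36.9 and 52.1 CPM in the Ms4a6c knockout, 21.5, 17.5 and 17.2 CPM in wild-type mice and 41.8, 21.7 and 18.9 CPM in the Ms4a cluster knockout. The part of neutrophils in the level of Lbp was not tested.

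The LPS pathway that LBP serves was measured in full. All 29 listed genes were tested, and 0 passed in the Ms4a cluster knockout and 0 in the Ms4a6c knockout with edgeR. In each knockout 2 had an unadjusted p under 0.05, where 4.93% and 10.5% of all genes did. They were Tlr4 and Tab2, both lower, in the cluster knockout. In the Ms4a6c knockout they were Map3k7, which was lower, and Traf3, which was higher. DESeq2 called 0 and 1, the 1 being Map3k7, a kinase downstream of the receptor, which was lower. The summed level was 1020 to 1106 CPM in wild-type mice, 1012 to 1025 in the Ms4a cluster knockout and 1038 to 1067 in the Ms4a6c knockout. Cd14, which takes LPS from LBP, was at 8.15 to 11.6 CPM in wild-type and 8.75 to 9.37 CPM in Ms4a6c knockout mice. Tlr4, the receptor, was at 14.7 to 16.1 CPM and 13.4 to 14.8 CPM, and Ly96, which encodes MD-2, at 1.54 to 1.63 CPM and 1.60 to 2.54 CPM. In Ms4a cluster knockout mice Cd14 was at 9.67 to 12.7 CPM, Tlr4 at 12.5 to 13.5 CPM and Ly96 at 1.45 to 2.39 CPM. Tlr4 thus lay below the wild-type mice without overlap in the cluster knockout, where 9.86% of all genes did not overlap in either direction. The median log2 fold change of the list was 0.05 in the Ms4a cluster knockout and -0.02 in the Ms4a6c knockout, against 0.007 and -0.002 over all genes.

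Lbp is a gene of the hepatic acute phase response, and other genes of that response were listed with it. Of 23 genes 15 were tested, 0 passed in either knockout with edgeR or DESeq2, and at an unadjusted p under 0.05 there were 0 in the Ms4a cluster knockout and 3 in the Ms4a6c knockout. The 3 were Cp (58.0 to 66.0 CPM against 76.5 to 84.9 in wild-type mice), Cebpd and Itih4. Their log2 fold changes were -0.39, -0.36 and -1.80, the opposite sign to Lbp. Itih4 held only 1 to 5 counts a mouse, so its value rests on few counts. The serum amyloid genes Saa1 and Saa3 held no more than 2 counts in any mouse, and Saa2, Fgb, Fgg and Apcs held 0 in all. Haptoglobin (Hp) was at 4.10 to 10.3 CPM in wild-type, 5.51 to 8.97 CPM in Ms4a cluster knockout and 6.44 to 11.3 CPM in Ms4a6c knockout mice. Lcn2, a secreted siderophore-binding protein, was at 12.2 to 17.2, 15.2 to 32 and 12.8 to 30.2 CPM. The groups overlapped for both genes.

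The remaining BPI-fold genes were silent or low, except Pltp. Of 7 listed, 4 were tested and 0 passed in either knockout with edgeR or DESeq2, with 0 and 1 at an unadjusted p under 0.05. Bpi held 0 counts in all 9 mice although it lies next to Lbp, and Bpifa3 and Bpifa5 held 1 count each. Pltp, which moves phospholipids between lipoproteins, was steady at 37.9 to 48.6 CPM. Bpifa2 was at 0.68 to 1.75 CPM and Bpifc at 0.057 to 0.50 CPM over the 9 mice. Bpifa6 was at 0.28, 10.5 and 0.80 CPM in wild-type mice, 0.10, 0.50 and 4.36 CPM in the Ms4a cluster knockout and 0.41, 0.25 and 0.25 CPM in the Ms4a6c knockout. Its high mice were wild-type mouse 2 and Ms4a cluster knockout mouse 3, not those of Bpifb9b.

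The genes around Lbp on chromosome 2 were counted as a description. Within 5 Mb, 4 of 131 tested genes (3.05%) passed in the Ms4a6c knockout against wild-type mice and 0 in the Ms4a cluster knockout. On the whole of chromosome 2 it was 27 of 1907 (1.42%) in the Ms4a6c knockout. The 4 were Gm14226, Ahcy, Map1lc3a and Uqcc1, and all were lower, whereas Lbp was higher. They start between 3.29 and 2.46 Mb before Lbp, between it and the BPI-fold row, and 0 of the 51 genes within 2 Mb of Lbp passed with edgeR. At an unadjusted p under 0.05 there were 10 of those 51 and 32 of the 131, and the median absolute log2 fold change was 0.25 and 0.24, against 0.16 over all genes.

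Ahcy, the enzyme that breaks down S-adenosylhomocysteine, was at 36.8 to 37.8 CPM in wild-type mice, 33.9 to 39.0 CPM in the Ms4a cluster knockout and 11.6 to 12.5 CPM in the Ms4a6c knockout. Gm14226 was at 4.19 to 6.14 CPM, 5.71 to 6.76 CPM and 0 to 0.041 CPM, the last being 1 count in 1 mouse. Both thus separated the Ms4a6c knockout from the other 6 mice without overlap, in the opposite direction to Lbp. Around the BPI-fold row, 5 of 184 genes within 5 Mb (2.72%) passed in the Ms4a6c knockout, where 0.435% of all genes did. These were the 4 genes named above and Trib3, which was higher (27.5 to 48.2 CPM against 14.9 to 17.1 CPM in wild-type mice). Within 2 Mb of the row it was 5 of 102 genes (4.9%). At an unadjusted p under 0.05 there were 42 of the 184 and 32 of the 102, against 10.5% of all genes. Trib3 was also among the 3 genes nearest to Lbp in profile, with a difference of 0.27, after Gm15387 (0.25) and Egln3 (0.26). With a pseudocount of 2 in place of 0.5, 0 of these 3 remained.

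**Figure D5:**
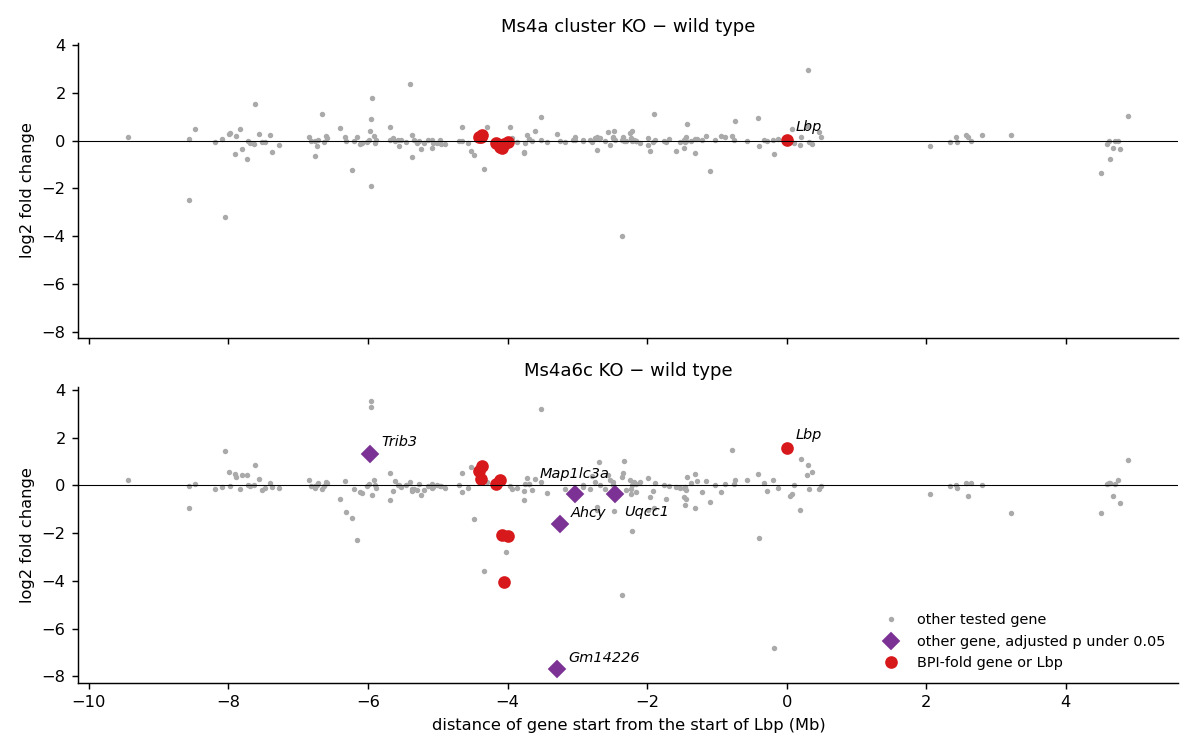
Log2 fold change of each tested gene within 5 Mb of Lbp or of the BPI-fold row against the distance of its start from that of Lbp in Mb, in the Ms4a cluster knockout (top) and the Ms4a6c knockout (bottom), both relative to wild-type mice. Red points are the members, purple diamonds other genes with an adjusted p under 0.05, and grey points the remaining genes. The 5 diamonds, Trib3, Gm14226, Ahcy, Map1lc3a and Uqcc1, appear in the bottom panel alone.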

How the data were processed

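The 9 libraries were grouped and numbered by the sample labels, 3 for each of the 3 genotypes. Directional poly-A libraries were sequenced by the authors, who aligned the read pairs with STAR 2.6.1 in DolphinNext (versions as in the submitters' processing notes), and quantified them with RSEM 1.3.1 on GENCODE M25 (GRCm38). The values the authors deposited are RSEM expected counts of 55291 genes, without normalization.

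Expected counts were rounded to whole numbers. The 23225 genes with at least 10 counts over the 9 mice were scaled by TMM and tested with edgeR 4.0.16 (quasi-likelihood test, R 4.3.3) fitted to the 3 groups together, with p-values adjusted by Benjamini-Hochberg over all tested genes and a threshold of 0.05. CPM are per TMM-scaled library. DESeq2 1.42.0 was an alternative. Standard errors are the log2 fold change over the square root of F. The edgeR step was tested on simulated data. The mice of a group are separate samples, and the p-values measure the spread between them. The authors describe the wild-type mice as littermate controls, but the litter of single mice is not given. An exact permutation test of 3 mice against 3 cannot go below 0.1.

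Library totals of 13954591 to 21987174 make counting error small for all members but Bpifb2 and the lowest Bpifb5 values. Reads carry no molecular identifiers, so limits cover counting error only. GENCODE M21 (GRCm38) gave coordinates and transcripts and matched 99.6% of the deposited genes, and promoters came from RefSeq (GRCm38.p6), where 9 of 10 members matched. Sequences were compared by pairwise alignment in Biopython 1.88, and figures were drawn with matplotlib 3.10.9.

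The members, gene lists and tests were chosen with earlier results of these data known. Named were the members, the genes of the lists, the 3 genes nearest to each member in profile, and the genes within 5 Mb of Lbp that passed, of which the text gives a selection. Trib3 is named also for the BPI-fold row. Alternatives were DESeq2 size factors, other filters, fits of 2 groups alone, a block for the replicate number, the exclusion of each mouse, plain library sizes, a pseudocount of 2 and a window of 2 Mb. A fit without wild-type mouse 1 and Ms4a cluster knockout mouse 2 was added after seeing the data.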

Additional observations from a re-analysis of the deposited data

How the results depend on the processing

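Of 586 alternative values, 551 kept their direction and their side of the threshold or moved by less than the spread between mice. In all 16 alternatives 0 members passed in the Ms4a cluster knockout. Leaving out 1 mouse turned the direction of members when Ms4a cluster knockout and wild-type mice were compared, with log2 fold changes of -0.068 to 0.43 for Bpifb6, -0.017 to 0.22 for Bpifb3, -0.016 to 0.471 for Bpifb4, -0.206 to 0.037 for Bpifa1, -5.24 to 4.32 for Bpifb5, -5.11 to 4.25 for Bpifb9a, -4.99 to 4.31 for Bpifb9b and -0.048 to 0.143 for Lbp. For Bpifb5, Bpifb9a and Bpifb9b the ends came from leaving out wild-type mouse 1 or Ms4a cluster knockout mouse 2. In the LPS list in the Ms4a6c knockout, DESeq2 called 1 gene (Map3k7) in place of 0, and leaving out a mouse gave 0 to 1, the 1 without Ms4a cluster knockout mouse 2. Around Lbp, 4 genes passed within 5 Mb and 0 within 2 Mb, a window with fewer genes tested. Around the BPI-fold row, 5 passed in the Ms4a6c knockout with either window. With the replicate number as a block, 0 members passed in the Ms4a cluster knockout, and the block changed no other call. Same-numbered mice did not deviate together from their group means. The mean correlation was -0.381 between the Ms4a cluster knockout and wild-type, -0.0298 between the Ms4a6c knockout and wild-type, and 0.0137 between the knockouts. With 3 mice a group the deviations within a group are tied to each other, so this check cannot exclude a shared litter or batch. Only 3 mice a group and the spread of gland products limited what could be seen for Bpifb5, Bpifb9a and Bpifb9b.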
